A study of Drosophila melanogaster with 3 samples.

Results

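The genes described here encode the proteins of the mitochondrial ribosome. They are the 72 rows, of 15603 in the deposited table, whose gene symbol starts with mRpL (46 genes, named for the large subunit) or mRpS (26 genes, named for the small subunit). The study sequenced RNA of 3 cell pools from the Drosophila eye-antennal disc (EAD), the larval epithelium that forms the eye and antenna, and made 1 library per pool. The tumor library holds GFP+ clones made with ey-flp, homozygous for *scrib2* on the Frt82B arm, in which Act>y+>Gal4 drives UAS-RasV12 and UAS-GFP and from which the tubGal80 repressor is lost. The library of the tumor microenvironment (TME) holds the GFP- cells of discs of that same genotype, a mixture of any disc cells outside the clones. The control library holds GFP+ cells of discs labelled GMRGFP, and the GMR promoter is active behind the morphogenetic furrow, where retinal cells differentiate. Each library came from 50 discs of wandering larvae at Day 6. The tumor and control pools therefore differ in genotype, in the driver of GFP and in the region of the disc, and these cannot be told apart.

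Mitochondria keep a small genome that encodes a few subunits of the respiratory chain and the ribosomal RNAs, and they translate it with a ribosome of their own. All proteins of that ribosome are encoded in the nucleus, made in the cytosol and imported. Some are counterparts of bacterial ribosomal proteins, others were added in the mitochondrial lineage, and the subunits assemble around the mitochondrial ribosomal RNAs. In the fly, *mRpL12* is needed for the growth driven by Cyclin D and Cdk4, and mutants of *tko* and *bonsai*, which encode the proteins S12 and S15, show what a partial loss does: *tko* flies develop slowly and are bang-sensitive, and *bonsai* flies are small.

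The values are FPKM, a unit that divides the fragments of a gene by transcript length and by library size. From the steps in low FPKM values, the depth was estimated at 1834018 fragments in the tumor library, 10978176 in that of the TME and 1764574 in that of the control. A member had 11 to 127 estimated fragments in tumor cells (median 32), 45 to 473 in TME cells (median 180) and 6 to 67 in control cells (median 25), over the 70 members with a transcript of at least 400 nt. The 95% intervals given below are exact Clopper-Pearson intervals on these fragments, for the libraries alone. They cover counting error only, and with 1 library per pool no difference has a replicate check and no p-value can be given. Summed FPKM of 6 neuron markers was 15.9 in tumor cells, 20.5 in TME cells and 282 in control cells, and that of 6 hemocyte markers was 9.34, 308 and 311 in the same order. Of 5 fat body markers, 4, 2 and 1 were at 0, with sums of 0.253, 2.17 and 52.6 FPKM, the glial marker *repo* was at 3.06, 12.1 and 27.5 FPKM, and 3 muscle markers summed to 21.2, 16.6 and 9.26 FPKM. Marker RNA thus differed between the pools, and the part of cell makeup in the differences below was not tested. In such pools, fewer cells of a type and less RNA per cell cannot be told apart. *Ras85D*, the gene whose activated form the clones carry, was at 327 FPKM in tumor cells, 118 in TME cells and 139 in control cells. The level of *scrib* was 51.0, 44.6 and 36.2 FPKM in that order, and a mutant allele need not lower the RNA.

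Every member was measured in every library, and none was listed at 0. In the tumor, members lay between 12.7 FPKM (*mRpL9*) and 85.9 FPKM (*mRpS10*), with a median of 29.4. In the TME they lay between 8.82 FPKM (*mRpL41*) and 102 FPKM (*mRpL33*), with a median of 24.8. In the control they lay between 4.39 FPKM (*mRpL10*) and 164 FPKM (*mRpL33*), with a median of 21.9. Of the 72 members, 59 exceeded 20 FPKM in tumor cells, 53 in TME cells and 42 in control cells. The median member stood above 71.5% of the genes detected in tumor cells, 72.3% of those in TME cells and 66.1% of those in control cells. These are genes of moderate level, and the summed FPKM of the set was 2339 in tumor cells, 2068 in TME cells and 1870 in control cells, of which *mRpL33* alone made up 73.4, 102 and 164 FPKM.

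For 42 of the 72 members, exons overlap those of another annotated gene, in 39 of them on the other strand alone. How the authors' counting used strand is not stated in the sources used here, so reads of a member and its partner may not be told apart. Of the members described by name, those with such an overlap are *mRpL9*, *mRpL10*, *mRpL15*, *mRpL28*, *mRpL30*, *mRpL32*, *mRpL34*, *mRpL35*, *mRpL41*, *mRpL44*, *mRpL51*, *mRpS9*, *mRpS18C*, *mRpS21*, *mRpS23*, *mRpS28*, *mRpS29* and *mRpS34*, on the other strand, and *mRpS14*, which overlaps *CG32533* on its own strand.

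**Figure D1:**
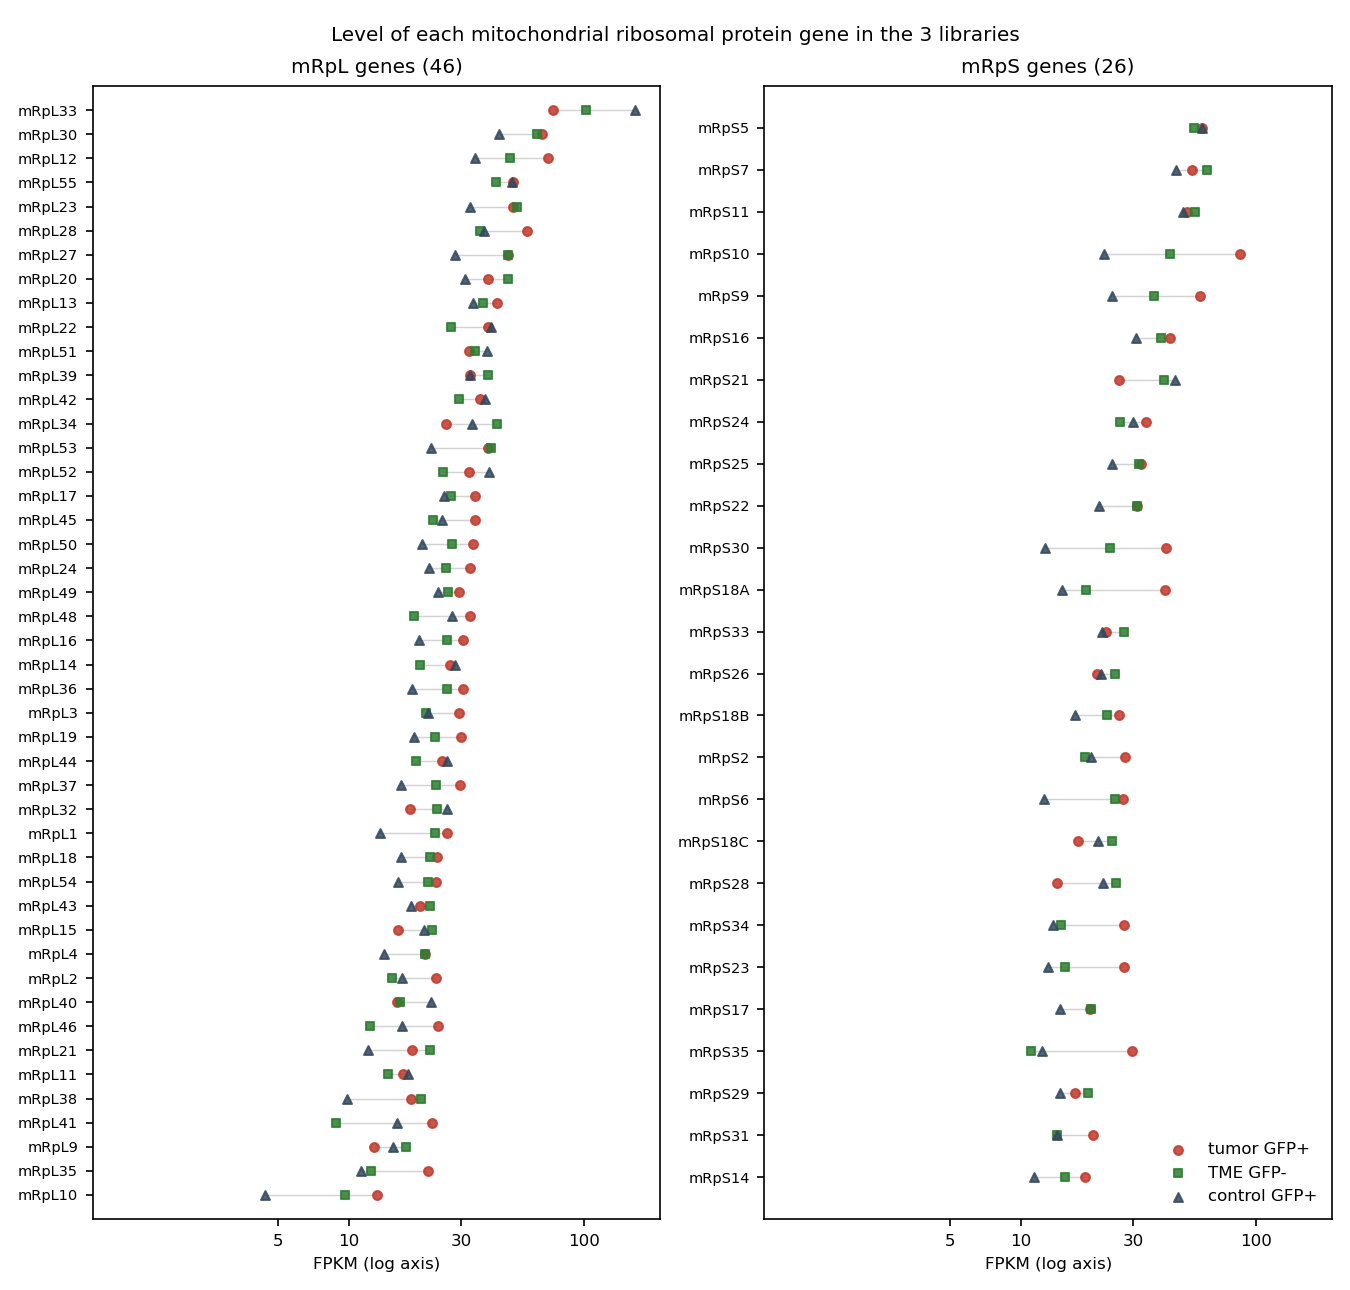
FPKM (log axis) of each of the 46 mRpL and 26 mRpS genes, with red circles for the tumor, green squares for the TME and blue triangles for the control, 1 library each, ordered by mean level. Without scaling, the tumor was the highest of the 3 libraries for 41 genes and the control was the lowest for 42. *mRpL33*, at the top of the left panel, runs the other way.

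The most abundant members by mean FPKM were *mRpL33*, *mRpS5*, *mRpL30*, *mRpS7* and *mRpS11*, all counterparts of bacterial ribosomal proteins. *mRpS5*, whose bacterial counterpart lies at the entry of the mRNA channel, was at 58.9 FPKM in tumor cells, 54.7 in TME cells and 59.2 in control cells. *mRpS7*, which in bacteria helps to start the assembly of the small subunit head, was at 53.3, 61.8 and 45.5 FPKM in that order, and *mRpS11*, a platform protein, was at 51.2, 55.3 and 49.0 FPKM. These 3 abundant genes differed between libraries by less than their counting intervals for tumor over control, at 0.995 (0.603 to 1.61), 1.17 (0.800 to 1.73) and 1.04 (0.702 to 1.56). *mRpL30* was at 66.2 FPKM in tumor cells, 63.0 in TME cells and 43.4 in control cells, and its ratio of tumor to control was 1.53 (1.04 to 2.33). The members with the lowest means were *mRpL10*, *mRpL35*, *mRpS14*, *mRpL9* and *mRpL41*. *mRpL35* was at 21.6 FPKM in tumor cells, 12.4 in TME cells and 11.2 in control cells, *mRpS14* at 18.7, 15.3 and 11.4 FPKM, and *mRpL9* at 12.7, 17.5 and 15.3 FPKM. These 3 genes, all with bacterial counterparts, had intervals for tumor over control that included 1. Over the 72 members, log2 FPKM of the tumor and the control correlated with a Pearson r of 0.652 (Spearman 0.640), that of the tumor and the TME with 0.740 (0.727) and that of the TME and the control with 0.807 (0.780). The points are genes, not replicates, and the libraries share the transcript lengths behind each FPKM. By these values the order of levels within the set was closest between the TME and the control. The tumor and control libraries are both shallow, with a median of 32 and 25 fragments per member, against 180 in the TME. The part of counting error in these correlations was not tested.

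Between the tumor and the control, most members were higher in tumor cells, and the typical difference was modest. The ratio was above 1 for 54 of 72 members (75.0%), against 50.2% of the 7686 genes tested, which are genes above 5 FPKM in at least 1 of the libraries compared and above 0 in both. The median log2 ratio of tumor over control was 0.47 for the members, a ratio of 1.39, and 0.005 for all genes tested. It was 0.39 with scaling by the median ratio of all genes and 0.34 with scaling by the upper quartile. The interquartile range of the members ran from 0.001 to 0.713, a width of 0.712 compared with 1.20 for all genes. A 2-fold rule, a ratio of at least 2 with more than 5 FPKM in the higher library, was met upward by 10 members (13.9%), and by 12.3% of all genes, so at that size the set did not stand apart from its background. With scaling by the upper quartile, 6 members (8.33%) and 9.57% of all genes met it upward. Of the 30 members whose exons overlap no other gene, 6 met it without scaling (20%), as did 4 of the 42 others (9.52%). Downward it was met by 1 member, *mRpL33* (1.39%), and by 17.6% of all genes. The counting interval lay above 1 for 15 of 70 members (21.4%), against 27.3% of all genes, and below 1 for none, against 26.5%. In this and the other comparisons such shares depend on fragments per gene, and all genes include other lengths and levels than the members have. Beside all genes, the set therefore had few genes on the lower side and a moderate shift of its middle, not many large differences. This was not particular to the set. Of the 62 tested nuclear genes for the respiratory chain and ATP synthase, none met the rule downward and the median log2 ratio was 0.48. Of 85 tested ribosomal proteins of the cytosol, 2 met it downward, with a median of -0.03.

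The 10 members that met the rule upward were *mRpS10*, *mRpS30*, *mRpL10*, *mRpS18A*, *mRpS35*, *mRpS9*, *mRpS6*, *mRpS23*, *mRpL12* and *mRpS34*. By their names, 8 belong to the 26 small subunit genes and 2 to the 46 large subunit genes. In mammals, however, the counterparts of *mRpS18A* and *mRpS30* sit in the large subunit, and with those moved the counts were 6 of 24 and 4 of 48. The median log2 ratio was alike in the subunits, at 0.47 for the mRpL genes and 0.48 for the mRpS genes.

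*mRpS10*, whose bacterial counterpart lies in the head of the small subunit, had 85.9 FPKM in tumor cells, 43.1 in TME cells and 22.5 in control cells, from 89, 281 and 24 estimated fragments. It had the largest ratio of tumor to control among the members, 3.81 (2.36 to 6.14). The steps on either side were alike, with 2.00 (1.55 to 2.53) for tumor over TME and 1.91 (1.24 to 2.99) for TME over control. *mRpS30* followed, at 41.4 FPKM in tumor cells, 23.9 in TME cells and 12.7 in control cells, from 127, 447 and 38 fragments. This protein has no bacterial counterpart, and its ratio of tumor to control was 3.26 (2.26 to 4.83). *mRpS9*, which in bacteria reaches with its tail to the tRNA in the peptidyl site, was at 58.0 FPKM in tumor cells, 37.01 in TME cells and 24.4 in control cells, a ratio of tumor to control of 2.38 (1.70 to 3.38). For *mRpS10*, *mRpS30* and *mRpS9* the intervals of all 3 ratios lay above 1, with the TME between the tumor and the control.

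In *mRpS35* and *mRpS18A* the TME lay near the control, below it in *mRpS35* and above it in *mRpS18A*. *mRpS35*, a protein found only in mitochondrial ribosomes, was at 29.7 FPKM in tumor cells, 11.1 in TME cells and 12.3 in control cells. Its ratio was 2.42 (1.45 to 4.18) for tumor over control, 2.68 (1.92 to 3.75) for tumor over TME and 0.902 (0.568 to 1.49) for TME over control. *mRpS18A*, one of the genes of the mitochondrial S18 family, was at 40.9 FPKM in tumor cells, 19.0 in TME cells and 15.0 in control cells, with 2.72 (1.37 to 5.82) for tumor over control and 2.16 (1.40 to 3.27) for tumor over TME. *mRpS34* and *mRpS23*, both mitochondria-specific, had the TME slightly above the control, as *mRpS18A* did. *mRpS34* was at 27.5, 14.8 and 13.7 FPKM in tumor, TME and control, 2.01-fold above control cells in the tumor (1.03 to 4.15). *mRpS23* was at 27.4, 15.5 and 13.1 FPKM, 2.10-fold above control cells (1.09 to 4.57).

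The stalk of the large subunit, which in bacteria is built from L10 and L12 and recruits the translation factors, had its members on the same side. *mRpL12* was at 70.1 FPKM in tumor cells, 48.3 in TME cells and 34.4 in control cells, from 75, 323 and 37 fragments. Its ratio of tumor to control was 2.04 (1.36 to 3.11). *mRpL10*, which anchors L12 to the ribosome, had the lowest mean level of the members, at 13.1 FPKM in tumor cells, 9.59 in TME cells and 4.39 in control cells. Its ratio of 2.98 rests on 18 fragments in tumor cells and 6 in control cells, and the interval is wide (1.14 to 9.20). *mRpS6*, a platform protein in bacteria, was at 27.2 FPKM in tumor cells, 25.1 in TME cells and 12.5 in control cells. It met the 2-fold rule at 2.17, but its interval, from 19 and 9 fragments, included 1 (0.938 to 5.46).

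**Figure D2:**
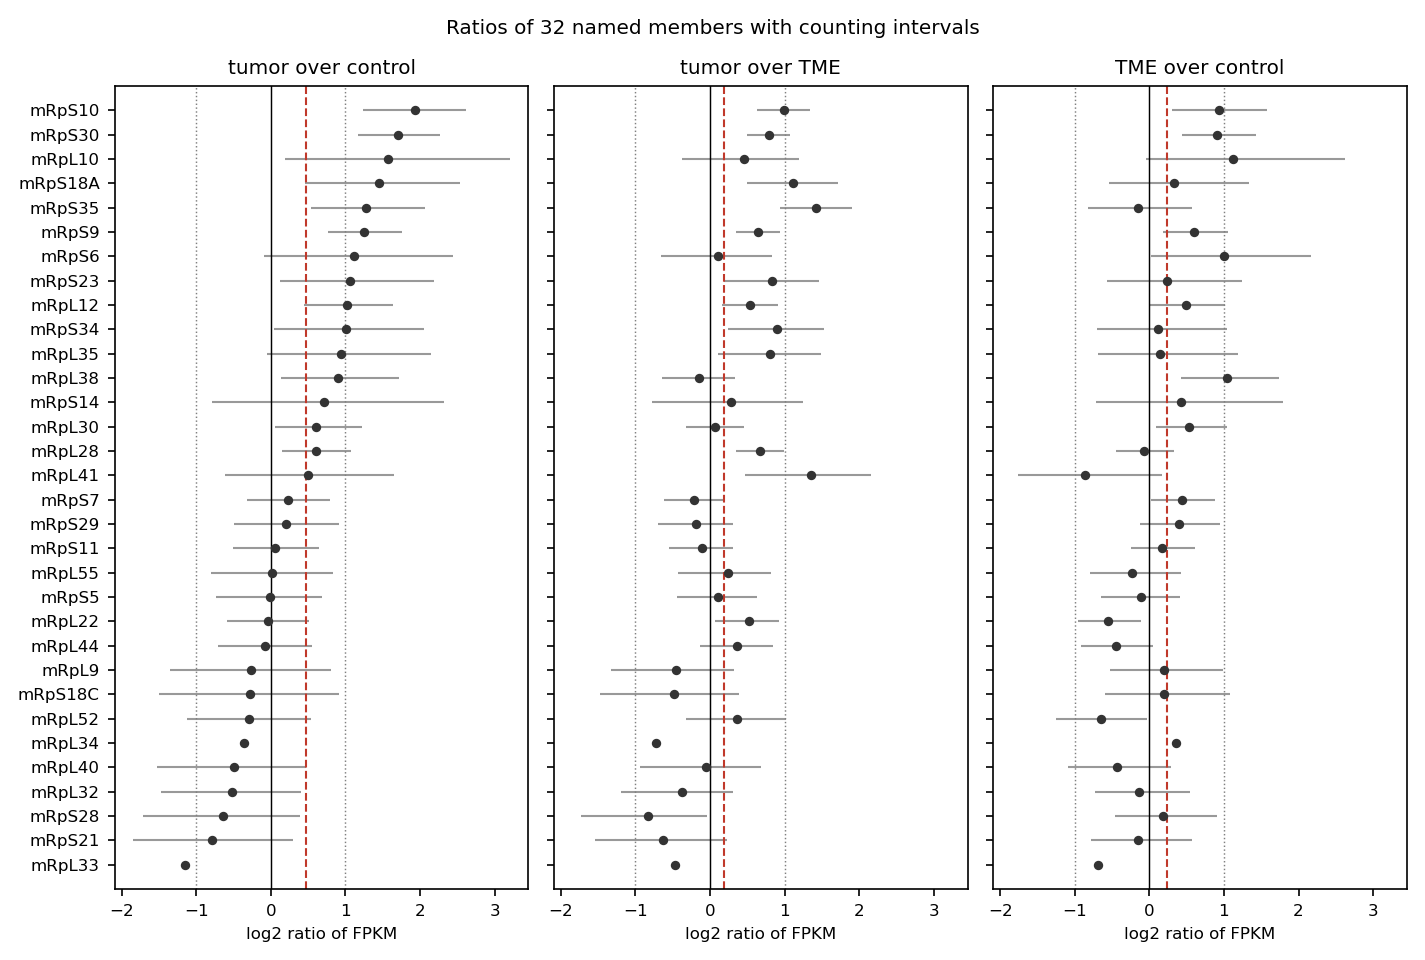
Log2 ratio of FPKM for 32 members, chosen by level, ratio or known role, in each of the 3 comparisons, ordered by tumor over control. Points are ratios of 1 library each, bars are 95% counting intervals (*mRpL33* and *mRpL34*, under 400 nt, have none), dotted lines mark 2-fold and the red dashed line the median of all 72 members. For tumor over control *mRpS10*, *mRpS30*, *mRpS35* and *mRpS9* are the genes whose bars clear the dashed line on the right.

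The spread among members was compared with the counting error. For tumor over control, the interval of 4 members lay above the median ratio of 1.39 (*mRpS9*, *mRpS10*, *mRpS30*, *mRpS35*). The interval of 5 lay below it (*mRpL32*, *mRpL40*, *mRpS21*, *mRpS28* and *mRpL15*, of which *mRpL15* was named after its values were seen). The other 61 of 70 members had intervals that included the median ratio of the set, at a depth where the upper bound of an interval was 3.11 times the lower in the median member. For tumor over TME, with the deeper TME library, the interval of 12 members lay above the median ratio of 1.13 and that of 4 below it, and for TME over control 4 lay above 1.18 and 5 below it.

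The members on the low side of tumor over control included *mRpL33* and *mRpS21*, bacterial-type genes with shortest transcripts of 349 and 422 nt. The bacterial-type *mRpS28* and *mRpL32* and the mitochondria-specific *mRpL40* had 691, 704 and 716 nt, near the median of 736 nt over the members. *mRpL33*, a small protein of the large subunit, was at 73.4 FPKM in tumor cells, 102 in TME cells and 164 in control cells, a ratio of tumor to control of 0.448. Its shortest annotated transcript is 349 nt long, a length at which FPKM depends on the fragment length assumed, and no interval was computed for it. *mRpS21* was at 26.2 FPKM in tumor cells, 40.5 in TME cells and 45.1 in control cells (0.581, interval 0.279 to 1.23). *mRpS28*, a counterpart of bacterial S1 in mammals, was at 14.3, 25.4 and 22.3 FPKM in that order (0.642, 0.304 to 1.32). In *mRpS21* the TME lay near the control, and in *mRpS28* above it. *mRpL32* was at 18.2, 23.7 and 26.0 FPKM and *mRpL40*, whose human counterpart lies in the region deleted in DiGeorge syndrome, at 15.9, 16.5 and 22.4 FPKM. The ratios of tumor to control were 0.698 (0.361 to 1.33) for *mRpL32* and 0.712 (0.346 to 1.39) for *mRpL40*. Counting error was not computed for *mRpL33*, and each of the other differences lay within it.

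The ratios moved with transcript length. The 36 members with a shortest transcript of up to 734 nt had a median log2 ratio of tumor over control of 0.28, with 23 of 36 above 1. The 36 longer ones, from 738 to 1829 nt, had 0.55, with 31 of 36 above 1. All tested genes in the same length ranges had medians of -0.11 and 0.07, so members lay above genes of like length in each range. Over the 72 members, log2 length and the log2 ratio of tumor over control had a Pearson r of 0.393 (Spearman 0.322), and 0.303 (0.265) over the 70 members of at least 400 nt. For tumor over TME the medians were 0.11 in the shorter and 0.34 in the longer members, against -0.16 and 0.10 in all tested genes of those length ranges. The ratio of tumor to TME was above 1 for 63.9% of the shorter members and 37.8% of genes of like length, and for 69.4% of the longer members and 57.5% of genes of like length. For TME over control the medians were 0.18 and 0.28 in members, against 0.05 and 0.01 in genes of like length. Members thus lay above genes of their own length range in all 3 comparisons, for TME over control by less than against all genes. The fitted depths came with a length correction of 156 nt in tumor cells and 129 nt in each of the other libraries, and the part of that difference in the ratios was not tested.

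**Figure D3:**
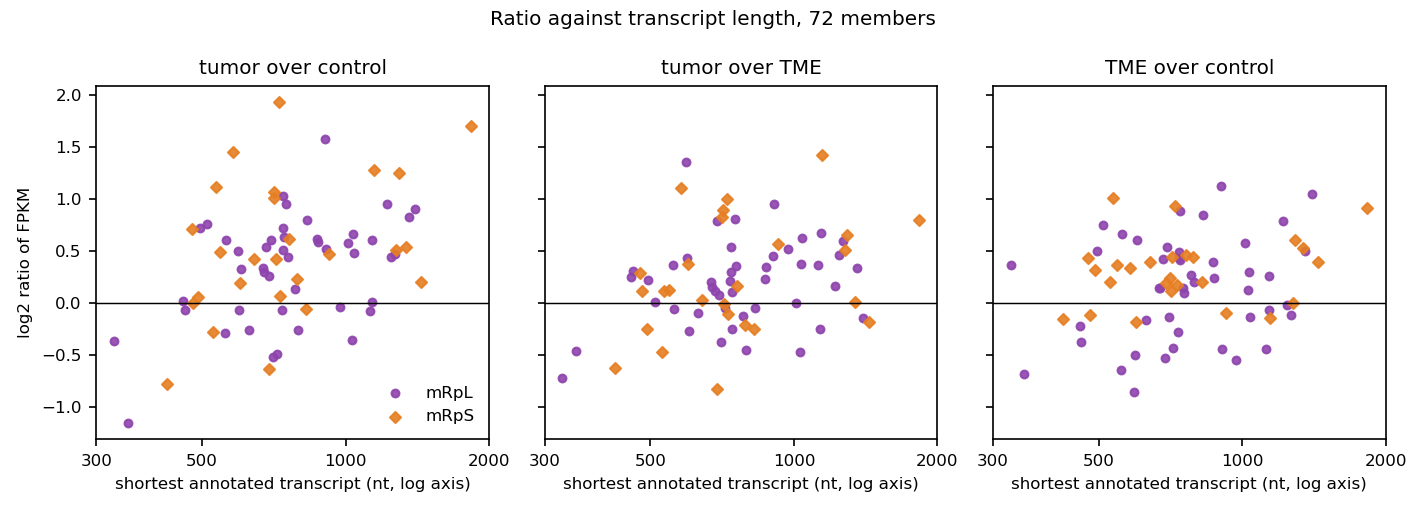
Log2 ratio of FPKM against the length of the shortest annotated transcript (nt, log axis) for 46 mRpL genes (purple circles) and 26 mRpS genes (orange diamonds) in the 3 comparisons, 1 library each. In the left panel, 31 of the 36 longer members lie above 0, as do 23 of the 36 shorter ones.

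Between the tumor and the TME, which come from discs of the same genotype, the median of the set was close to that of all genes. The ratio was above 1 for 48 of 72 members (66.7%) and for 62.6% of 7166 genes tested, and the median log2 ratio was 0.18 for the members and 0.17 for all genes. Scaling by the median ratio of all genes, a shift of 0.18, brought the median of the members to -0.004, and scaling by the upper quartile, a shift of 0.29, brought it to -0.106. No direction is therefore given for the set, although its medians lay above those of genes of like length. The 2-fold rule was met upward by 3 members (4.17%, all genes 6.35%) and downward by none (all genes 7.38%). The interval lay above 1 for 18 of 70 members (25.7%, all genes 35.8%) and below 1 for *mRpS28* alone (1.43%, all genes 15.0%). The 3 genes 2-fold higher in tumor cells were *mRpS35*, *mRpS18A* and *mRpL41*. *mRpL41*, whose human counterpart has been linked to growth arrest, was at 22.6 FPKM in tumor cells, 8.82 in TME cells and 16.0 in control cells, the lowest member in TME cells. Its ratio of tumor to TME was 2.56 (1.39 to 4.48), while its ratio of tumor to control, 1.41, had an interval that included 1 (0.655 to 3.14). *mRpL28*, known in human as a melanoma antigen, was at 57.0 FPKM in tumor cells, 35.8 in TME cells and 37.6 in control cells, with 1.59 (1.27 to 1.99) for tumor over TME and 1.52 (1.11 to 2.10) for tumor over control. On the other side, *mRpS28* had a ratio of tumor to TME of 0.563 (0.302 to 0.976) and *mRpL34*, of 327 nt and with no interval, had 0.604 at 25.8 FPKM in tumor cells, 42.7 in TME cells and 33.2 in control cells. *mRpS18C*, of the same family as *mRpS18A*, had 0.718 (0.361 to 1.31), at 17.5 FPKM in tumor cells and 24.4 in TME cells.

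Between the TME and the control the set was again shifted upward relative to all genes. The ratio was above 1 for 48 of 72 members (66.7%) and for 42.4% of 7827 genes tested. The median log2 ratio of TME over control was 0.24 for the members and -0.13 for all genes, and it was 0.29 with scaling by the median ratio and 0.39 with scaling by the upper quartile. The 2-fold rule was met upward by 3 members (4.17%, all genes 5.80%) and downward by none (all genes 14.8%). The interval lay above 1 for 14 of 70 members (20.0%, all genes 20.5%) and below 1 for 2 (2.86%, all genes 34.1%). *mRpL38*, a mitochondria-specific protein of the large subunit, was at 18.4 FPKM in tumor cells, 20.3 in TME cells and 9.82 in control cells, with 2.07 (1.34 to 3.35) for TME over control. *mRpL10* and *mRpS6* had 2.19 (0.967 to 6.16) and 2.01 (1.02 to 4.49) in this comparison. Of the genes below 1, *mRpL22*, which in bacteria lines the exit tunnel of the ribosome, was at 27.2 FPKM in TME cells and 39.9 in control cells, a ratio of 0.681 (0.515 to 0.928), and *mRpL52*, a mitochondria-specific protein, was at 25.1 and 39.3 FPKM, a ratio of 0.638 (0.421 to 0.978). In tumor cells *mRpL22* was near its control level, at 38.9 FPKM, and *mRpL52* was between the TME and the control, at 32.2 FPKM. The 3 comparisons share libraries, so that a low value in control cells raises a gene's ratio in both comparisons that use it.

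The groups of members had unlike medians for TME over control, but their interquartile ranges overlapped. The 28 bacterial-type genes of the large subunit had a median log2 ratio of TME over control of 0.27 and the 16 of the small subunit 0.35. The 10 mitochondria-specific genes of the small subunit had 0.28. The 18 mitochondria-specific genes of the large subunit had -0.14, with 8 of 18 above 1 (44.4%). That was close to all genes tested, with a median of -0.13 and 42.4% above 1. The interquartile range was -0.440 to 0.381 in these 18 genes and -0.032 to 0.548 in the bacterial-type genes of the large subunit. In the small subunit it was 0.106 to 0.446 in the bacterial-type and 0.137 to 0.393 in the mitochondria-specific genes. With scaling by the upper quartile the median of these 18 became 0.006 and that of all genes 0.023. For tumor over control all 4 groups had medians above 0, in the same order 0.54, 0.45, 0.52 and 0.28. *mRpL44*, a mitochondria-specific protein with an RNase III-like fold, was at 24.7 FPKM in tumor cells, 19.3 in TME cells and 26.2 in control cells. *mRpL55*, another of this group, was at 49.8, 42.0 and 49.2 FPKM, and *mRpS29*, the counterpart of the GTP-binding DAP3 of mammals, at 16.9, 19.3 and 14.7 FPKM. The ratios of tumor to control were 0.944 (0.611 to 1.46) for *mRpL44*, 1.01 (0.574 to 1.78) for *mRpL55* and 1.15 (0.713 to 1.88) for *mRpS29*.

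By order alone, 29 members ran tumor above TME above control, 13 ran TME above tumor above control, and 5 ran control above TME above tumor (*mRpL32*, *mRpL33*, *mRpL40*, *mRpL51*, *mRpS21*, of which *mRpL51* was named after its values were seen). The tumor was highest for 41 members, the TME for 19 and the control for 12. The tumor was lowest for 11, the TME for 19 and the control for 42. These orders rest on FPKM without scaling, and they are not set beside the same counts over all genes. With scaling by the median ratio or the upper quartile, members above 1 for tumor over TME went from 66.7% to 50.00% and 43.06%. The order of tumor and TME is therefore not read as a result about the set.

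Mitoribosomal proteins whose genes carry other symbols were not among the 72 and were set beside them. *bonsai* was at 51.5 FPKM in tumor cells, 27.5 in TME cells and 18.7 in control cells, a ratio of tumor to control of 2.76 (1.78 to 4.43). *tko* was at 44.2, 41.2 and 22.3 FPKM in that order, a ratio of 1.98 (1.14 to 3.52). Both had intervals above 1, and in *tko* the TME lay near the tumor. *Rlc1*, which the reference annotation names *mRpL47* and which was named here after its values were seen, was at 18.8, 19.2 and 15.0 FPKM, a ratio of tumor to control of 1.25 (0.668 to 2.31).

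Other lists of mitochondrial gene expression also had medians above 0 for tumor over control, though that of the tRNA synthetases fell below 0 with scaling by the upper quartile. Of all genes tested in this comparison, 12.3% met the 2-fold rule upward and 17.6% downward, and the lists that follow are small. Of 9 tested translation factors, which start, extend and end the chains on this ribosome, 4 met the 2-fold rule upward and none downward, with a median log2 ratio of 0.77. *CG6094*, a predicted release factor, was at 25.2 FPKM in tumor cells, 18.4 in TME cells and 9.28 in control cells (2.71, 1.28 to 6.30), and *EF-G2* (*mRRF2*), which helps to recycle the ribosome, at 5.52, 2.51 and 2.17 FPKM (2.55, 1.11 to 6.11). The elongation factor gene *CG6412* (*mEFTs*) lay the other way, at 31.2, 31.5 and 41.5 FPKM (0.750, 0.551 to 1.02), as did the release factor gene *CG5705* (*mRF1*) at 3.46, 2.12 and 6.61 FPKM (0.523, 0.192 to 1.32). The factors thus lay on both sides of 1. Of 12 genes for maintenance and transcription of mitochondrial DNA, 3 met the rule upward and none downward, with a median of 0.49. They were *mTTF*, a transcription termination factor, at 20.4, 12.2 and 7.23 FPKM (2.82, 1.57 to 5.15), *bsf*, an mRNA-binding protein, at 43.7, 22.1 and 20.8 FPKM (2.10, 1.74 to 2.55), and *CG7175* (*mTerf5*), named after its values were seen, at 10.9, 10.1 and 5.46 FPKM (2.00, 1.11 to 3.74). All 3 had intervals above 1. The mitochondrial RNA polymerase, *mtRNApol*, was at 9.40, 9.95 and 9.88 FPKM (0.952, 0.685 to 1.33). Of 10 tested mitochondrial tRNA synthetases, 3 met the rule upward and none downward, among them *CG16912* (*TyrRS-m*) at 10.6, 8.35 and 2.81 FPKM (3.77, 1.61 to 10.3), but their median was 0.09 and became -0.045 with scaling by the upper quartile. At the low end *Aats-pro* (*ProRS-m*) was at 6.41, 5.50 and 10.2 FPKM (0.628, 0.313 to 1.22).

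Genes that act before and after the mitochondrial ribosome were described in the same way, beside the same 12.3% of all genes upward and 17.6% downward. Of 9 tested import genes, 2 met the rule upward for tumor over control, the channel gene *Tom40* at 86.1, 45.3 and 35.7 FPKM in tumor, TME and control (2.41, 1.91 to 3.10) and the receptor gene *Tom70* at 36.1, 20.2 and 16.2 FPKM (2.22, 1.62 to 3.05). None met it downward, and the median was 0.46. None of 7 chaperone and protease genes met it in either direction, with a median of 0.82, and the chaperonin gene *Hsp60* was at 174, 143 and 97.2 FPKM (1.79, 1.57 to 2.03). The 62 tested nuclear genes for the respiratory chain and ATP synthase include the complexes that hold the products of the mitochondrial ribosome. Of them 48 had a ratio above 1 (77.4%, all genes 50.2%). The rule was met upward by 3, a lower share than among all genes, and downward by none. Their median log2 ratio of 0.48 was close to the 0.47 of the ribosomal proteins, and for TME over control it was 0.23 beside 0.24. Of them *CG6463* (*ND-13B*), of complex I, was at 94.9, 65.5 and 32.7 FPKM (2.91, 1.86 to 4.70). All 37 genes of the mitochondrial genome in the table were listed at 0 in every library, so the RNAs that this ribosome translates could not be described.

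The ribosomal proteins of the cytosol had another pattern. For tumor over control, 38 of 85 tested (44.7%, all genes 50.2%) had a ratio above 1, with a median log2 ratio of -0.03. None met the 2-fold rule upward (all genes 12.3%) and 2 met it downward (all genes 17.6%), *RpS5b* and *RpL38*. *RpL38* was at 1581 FPKM in tumor cells, 2866 in TME cells and 3276 in control cells (0.483, 0.441 to 0.528). *RpS5b*, a paralog of *RpS5a*, was at 2.20, 2.94 and 21.2 FPKM (0.104, 0.0208 to 0.346). *RpS5a* was at 3500, 3849 and 3178 FPKM, and the part of read assignment between the paralogs in the *RpS5b* ratio was not tested. For tumor over TME their median was -0.21, with 8 of 84 above 1 (9.52%, all genes 62.6%). For TME over control it was 0.20, with 75 of 85 above 1 (88.2%, all genes 42.4%). These medians kept their sign with both scalings. The mitochondrial and the cytosolic sets thus had medians on the same side for TME over control, and lay apart for tumor over control. The cytosolic set was not compared with genes of like length, and the part of transcript length in its medians was not tested. For tumor over control, all tested genes of 327 to 736 nt had a median of -0.11. Their median was -0.16 for tumor over TME and 0.05 for TME over control.

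**Figure D4:**
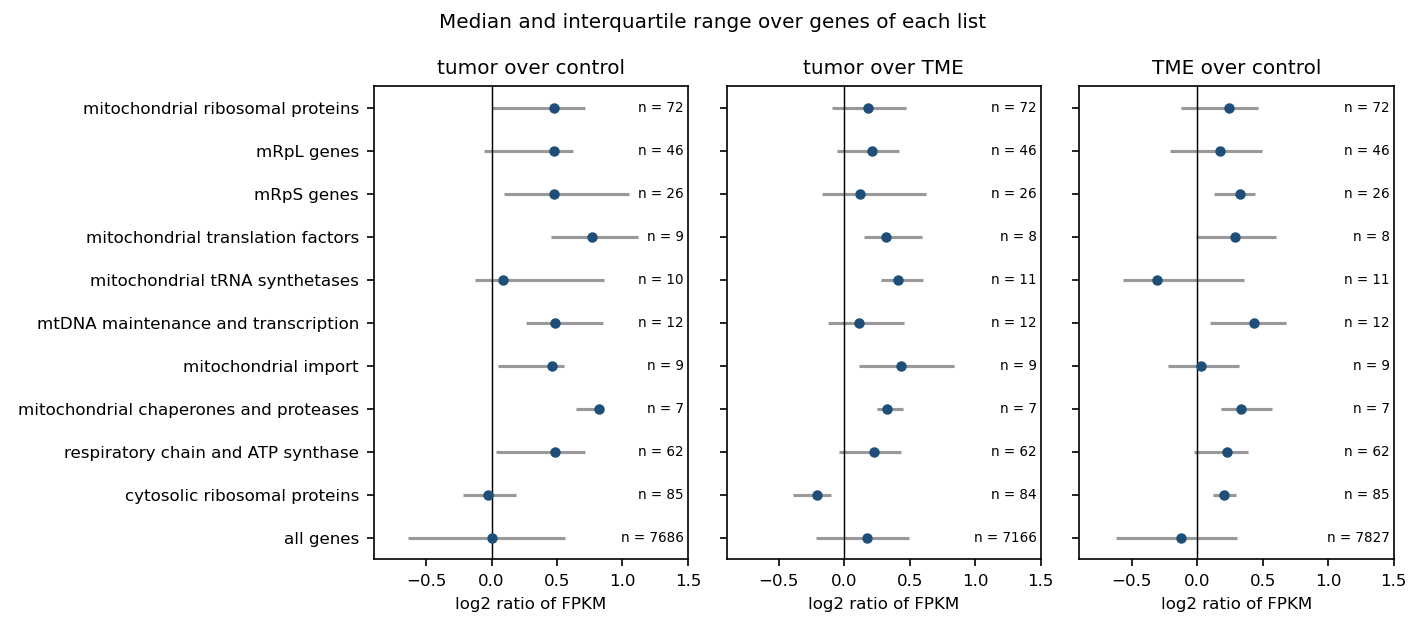
Median (points) and interquartile range (bars) of the log2 FPKM ratio over the genes of each list in the 3 comparisons, with the number of tested genes at the right; bars show spread among genes, not error. For tumor over control the 72 mitochondrial ribosomal protein genes and the 62 respiratory chain genes have medians of 0.47 and 0.48, the cytosolic ribosomal proteins -0.03 and all genes 0.005, and for tumor over TME the median of the 72 genes (0.18) turned to -0.004 and -0.106 with scaling.

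Of 7 regulators of growth and mitochondrial biogenesis, none met the rule upward for tumor over control (all genes 12.3%) and 1 met it downward (all genes 17.6%). Their median log2 ratio was 0.64, with 5 of 7 above 1. Named after their values were seen, *dm* (*Myc*) had a ratio of tumor to control of 1.65 (1.38 to 1.97), *Cdk4* 1.56 (1.12 to 2.155), *Dref* 1.55 (1.27 to 1.91) and *Ets97D* 0.998 (0.635 to 1.58). *Spargel*, the fly relative of the coactivator PGC-1, was at 47.2 FPKM in tumor cells, 31.8 in TME cells and 24.3 in control cells (1.94, 1.61 to 2.34), and *CycD* was at 34.0, 35.9 and 20.4 FPKM (1.66, 1.23 to 2.24). *ewg*, the fly relative of nuclear respiratory factor NRF-1 and a gene of high level in neurons, was at 13.9, 17.4 and 43.7 FPKM (0.319, 0.242 to 0.421). Neuron markers were high in the same control library, and the part of neuron content in the *ewg* ratio was not tested.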

How the data were processed

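RNA was measured in 3 libraries, 1 per group (tumor, TME, control), from GFP+ or GFP- cells of eye-antennal discs. The labels state sorting by FACS and extraction in Trizol, whereas the study's methods state manual isolation and Qiagen kits. Libraries came from the TruSeq kit and were read on a MiSeq. The authors aligned the reads to genome release 5.2 by means of the Tuxedo suite and deposited FPKM values, and its version, the annotation and strand handling were not stated in the sources used here. FPKM are relative, so a large change in a few genes moves all others. Column headings carry a date for tumor and TME and none for the control.

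Members were found by symbol. Depth was fitted from FPKM steps of genes with 1 transcript between 400 and 4000 nt, and 83.0%, 78.5% and 81.8% of low values in tumor, TME and control lay within 0.1 of a whole fragment number (20% by chance). Transcript lengths, exon overlaps and names came from Ensembl release 115 on assembly BDGP6, another build than the authors', so no coordinates are printed; 97.1% of genes matched. Fragments rest on the shortest transcript. Scripts were tested on simulated data. The named members are those with the 5 highest and 5 lowest means, the largest and smallest ratios, those that met the 2-fold rule and 9 chosen by role; of other lists, up to 4 extremes of tumor over control. Members, lists and rules were chosen with earlier results of these data known. Alternatives covered ratio threshold, FPKM floor, a pseudocount of 1, scaling, genes at 0, short transcripts and exon overlap. Python 3.11.15, numpy 2.4.6, pandas 2.3.3, scipy 1.17.1 and matplotlib 3.10.9 were used.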

Additional observations from a re-analysis of the deposited data

How the results depend on the processing

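With 1 library per group, no library could be left out. No paired analysis was possible because each group holds 1 library and no test was run. For tumor over control, the number of members that met the rule upward was 26 at a ratio of 1.5, 2 at a ratio of 3, 6 with upper quartile scaling and 6 of the 30 members that share no exons with another gene, an alternative chosen after seeing the data. Downward it was 3 at 1.5, 0 at 3 and 0 without members under 400 nt. For tumor over TME, it was 14 at 1.5 and 0 at 3 upward, and downward 3 at 1.5, 1 with median ratio scaling and 2 with upper quartile scaling. The median log2 ratio of tumor over TME became -0.004 and -0.106 with those scalings, with 50.00% and 43.06% of members above 1. For TME over control, it was upward 12 at 1.5, 0 at 3, 0 with 1 added to both values and 6 with upper quartile scaling, downward 3 at 1.5, and upper quartile scaling put 77.78% of members above 1. The other 80 values of the counts, medians and shares stayed within 1.5 times the reported count or the reported spread. With upper quartile scaling, the rule was met upward for tumor over control by 8.33% of members and 9.57% of all genes. For TME over control it was met upward by 8.33% of each, and for tumor over TME downward by 2.78% of members and 10.4% of all genes. For the other settings no share of all genes is given, so those counts are not read against a background. Single ratios were followed for the 32 named members only, and other members turned across 1 as well, as the shares above show. Among the 32, the ratio of tumor to control turned for mRpL55 and mRpS11 with both scalings. That of tumor to TME turned for mRpL30, mRpS5 and mRpS6 with both scalings and for mRpL55 with the upper quartile. That of TME to control turned for mRpL28, mRpL32 and mRpS5 with the upper quartile. Depth limits the tumor and control values most, with a median of 32 and 25 fragments per member.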
